A study of Danio rerio with 4 samples.

Results

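The translation initiation factors (eIFs) and translation elongation factors (eEFs) of the zebrafish, Danio rerio, were followed in early embryos. Members were all genes whose symbol began with eif or eef and a digit, with symbols taken from the authors' Cuffcompare tables and otherwise from a RefSeq gene table. This gave 73 of the 14792 named genes of the deposited expression table, with 76 of its 15936 RefSeq transcripts. The rule used names alone and no measured value, although it was chosen with earlier results of these data known. The series compared embryos before and after zygotic genome activation (ZGA), when the embryo starts to transcribe its own genome. One group was untreated wild-type embryos. In the other, embryos were injected at the first cleavage stages with α-amanitin (0.2 nmol), which inhibits RNA polymerase and so blocks ZGA. All fish were of the AB, TAB14 or TAB5 wild-type strains. Each long-read (PacBio) library was made from polyadenylated RNA of 1 pool of 15 embryos, and both are labelled 6 hours post fertilization (hpf). For the α-amanitin sample, its source name instead gives a stage that the labels place before ZGA, and this conflict was not resolved. A mock-injected group was not used here, and short-read libraries of untreated embryos at 2.5 and 5.25 hpf were not analysed as separate files.

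An mRNA is translated in steps, each run by its own factors. The eIF4 factors bind the 5′ cap and unwind the leader. The small ribosomal subunit, loaded with eIF1, eIF1A, eIF2, eIF3 and eIF5, then scans to the start codon, and eIF6 keeps free large subunits apart from small ones. The elongation factor eEF1A brings aminoacyl-tRNA to the ribosome, eEF1B recharges eEF1A with GTP, and eEF2 moves the ribosome along the mRNA. Before ZGA the embryo depends on maternal mRNAs that were stored in the egg. Many zebrafish factors are encoded by several gene copies, because the genome was duplicated in the teleost lineage.

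Levels are given as TPM, a transcript abundance scaled for transcript length and for the total of the column, summed over the RefSeq transcripts of a gene, for the control and the α-amanitin column of the deposited table. Ratios are log2 of (control TPM + 1) over (α-amanitin TPM + 1), with 2-fold as the threshold. There was 1 value per group, so no ratio has a replicate check and no test was possible. The columns were tied to the treatments by their names, and which reads were quantified is not stated; if they hold the short-read libraries, the ratios contrast stages. The same table lists 16639 PacBio transcripts that were not tied to genes. Reads of a member that were assigned to its PacBio transcripts are therefore missing from its value, and this affects every level below. All named genes together held only 43.8% of the TPM of the control column and 40.9% of that of the α-amanitin column. TPM is a share of the RNA, and fewer cells of a type cannot be told apart from less RNA per cell.

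Of the 73 factors, 22 (30.1%) were higher by 2-fold or more in the control column, where 22.5% of all named genes were. At least 2-fold lower were 13 (17.8%), against 25.7% of all named genes. The remaining 38 lay within 2-fold. A gene under 1 TPM in both columns cannot pass 2-fold, because 1 TPM is added to each level. In either column 66 of the 73 factors reached 1 TPM, as did 11011 of the 14792 named genes. The median log2 ratio of the factors was 0.28, and that of all named genes was 0.00. Factors were more abundant than genes in general, with a median of 32.7 TPM in the control and 25.3 TPM in the α-amanitin column against 3.27 and 2.71 TPM. Among named genes that reached 10 TPM in either column, 27% were higher and 42% were lower, with a median log2 ratio of −0.56. Of the 57 factors that reached it, 18 (31.6%) were higher and 11 (19.3%) lower, with a median of 0.37. Shares of all named genes set beside the groups below are not matched for level. The median log2 ratio of the 7522 named genes at or above 1 TPM in both columns was −0.49. With ratios taken relative to that median, which adds 0.49 to each, 30 factors (41.1%) were at least 2-fold higher and 8 (11.0%) lower, against 30.5% and 18.7% of all named genes. At 4-fold, 15 factors were higher and 4 lower, where 12.7% and 13% of all named genes were.

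Marker genes were set beside the column labels. Their lists were chosen with earlier results of these data known, so they are not an independent check. They also do not tell a contrast of treatments from one of stages. All 11 zygotic genes listed, such as ved and tbx16, were higher by 2-fold or more in the control column, and 5 of 7 maternal genes listed were at least 2-fold lower. Of the other maternal genes, bmp15 was at least 2-fold higher (log2 ratio 1.06), at a low level of 1.08 TPM in the control column. Enveloping layer markers (5 of 5 higher) summed to 4404 TPM in the control and 13.5 TPM in the α-amanitin column, and yolk syncytial layer markers (4 of 5 higher) to 2761 and 3.53 TPM. The germ plasm markers were lower in 3 of 4 cases, at 55.1 and 299 TPM in sum. These marker levels moved with the columns, and their part in the values of the factors was not tested.

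**Figure D1:**
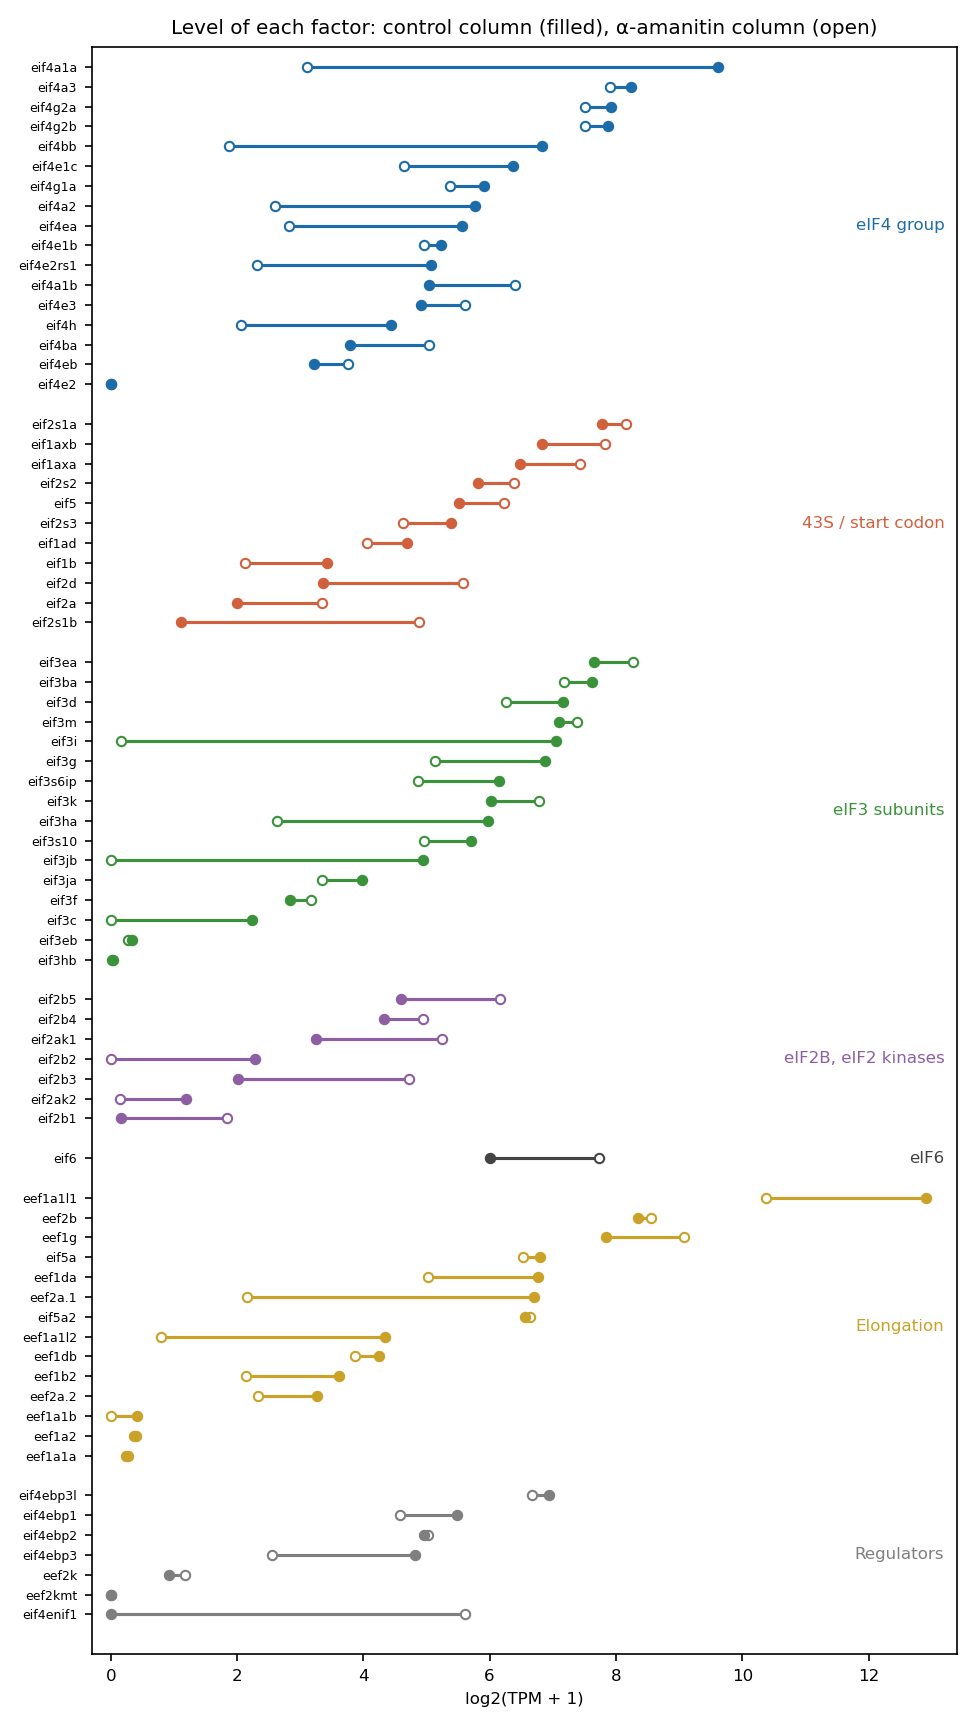
Level of each of the 73 factors as log2(TPM + 1), on the horizontal axis, with 1 row per gene ordered by role and then by level. Filled points are the control column and open points the α-amanitin column, with 1 value each; eef1a1l1 stands above all others in both columns, and long lines mark eif4a1a, eif4bb, eif3i, eif3jb and eef2a.1.

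The cap-binding group held the factor with the second-largest ratio, eif4a1a. Of its 17 members, 7 were higher by 2-fold or more in the control column and 2 lower, beside 22.5% and 25.7% of all named genes, with a median log2 ratio of 0.42. Relative to the median gene these counts were 8 and 0, beside 30.5% and 18.7%. eIF4A is the helicase that unwinds the mRNA leader. The copy eif4a1a had 784 TPM in the control column and 7.58 TPM in the α-amanitin column (log2 ratio 6.52). Its sister copy eif4a1b went the other way, with 31.9 and 83.9 TPM (−1.37, or −0.88 relative to the median gene). A further helicase of the family, eif4a2, had 53.5 and 5.07 TPM (3.17). By contrast eif4a3, the helicase of the exon junction complex, was high in both columns, at 300.2 and 239.6 TPM (0.32).

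eIF4B and eIF4H stimulate eIF4A. The eIF4B copy eif4bb had 112 TPM in the control and 2.65 TPM in the α-amanitin column (log2 ratio 4.95). The other copy, eif4ba, had 12.8 and 31.7 TPM (−1.25, or −0.76 relative to the median gene). The level of eif4h was 20.6 and 3.19 TPM (2.37), and its 3 RefSeq transcripts had ratios from 1.57 to 3.00. In the α-amanitin column NM_001197329 was listed at 9.63e-05 TPM and NM_205695 at 4.61e-06 TPM. Their ratios therefore depend on the 1 TPM added to each level. The α-amanitin library nevertheless held an intron-matched long-read model of NM_205695.

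Among the 7 genes of the eIF4E family, which bind the cap itself, 3 were higher by 2-fold or more in the control column and 0 lower. Of all named genes, 22.5% were higher and 25.7% lower. Relative to the median gene the counts were also 3 and 0, beside 30.5% and 18.7%. The canonical copy eif4ea had 46.1 and 6.05 TPM (log2 ratio 2.74), and eif4e1c had 81.9 and 23.9 TPM (1.73). The eIF4E2-related gene eif4e2rs1 had 32.7 and 3.99 TPM (2.76). Near-equal levels were seen for eif4e1b, a form known from zebrafish gonads and muscle, with 36.3 and 30.1 TPM (0.26). The other copies, eif4eb with 8.27 and 12.5 TPM (−0.54) and eif4e3 with 29.1 and 47.9 TPM (−0.70), were within 2-fold. For eif4e2 the table lists 0 in both columns, although long-read models named it in both libraries.

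The scaffold eIF4G joins the cap-binding protein to the ribosome. The scaffold eif4g1a had 59.0 TPM in the control and 40.2 TPM in the α-amanitin column (log2 ratio 0.54). Both copies of eIF4G2, a related scaffold that does not bind eIF4E, were among the 10 most abundant factors in each column. The levels of eif4g2a were 242 and 180.4 TPM (0.42), and those of eif4g2b 234 and 181 TPM (0.37). All 3 scaffold genes with a row were within 2-fold, although eif4g1a was just past it relative to the median gene (1.03). The further eIF4G genes eif4g1b, eif4g3a and eif4g3b have no row in the expression table.

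**Figure D2:**
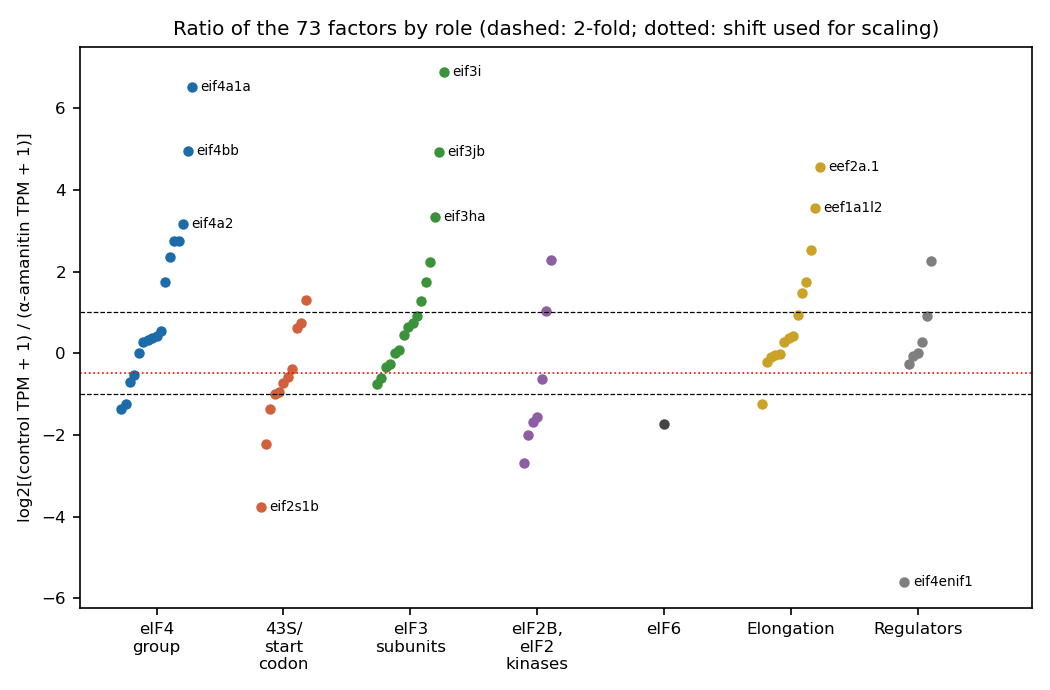
log2 ratio of (control TPM + 1) to (α-amanitin TPM + 1) for each of the 73 factors, grouped by role on the horizontal axis and sorted within each role. Each point is 1 gene, dashed lines mark 2-fold and the dotted line marks the median gene at −0.49; no eIF3 subunit lies below the lower 2-fold line, while 4 of 7 eIF2B and eIF2 kinase genes do.

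Genes grouped by symbol with the factors that load the small subunit and select the start codon numbered 11. Of these, 1 was higher by 2-fold or more in the control column and 4 lower, beside 22.5% and 25.7% of all named genes, with a median log2 ratio of −0.72. Relative to the median gene, 3 were higher and 2 lower, beside 30.5% and 18.7%, and the median was −0.23. Of the 11 genes, 9 reached 10 TPM in either column. Among all named genes at that level, 27% were higher and 42% lower, with a median log2 ratio of −0.56. eIF2 carries the initiator tRNA. Its α subunit is encoded by eif2s1a, the most abundant gene of this group, with 219 TPM in the control and 286 TPM in the α-amanitin column (−0.39, above the median gene). The second copy, eif2s1b, had 1.17 and 28.6 TPM (−3.77), the lowest ratio among factors with a level above 0 in both columns. The β subunit gene eif2s2 had 55.0 and 82.5 TPM (−0.58), and the γ subunit gene eif2s3 had 40.7 and 23.8 TPM (0.75).

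The eIF1A genes, whose product helps the small subunit to scan, were lower in the control column to a similar degree. The level of eif1axa was 88.5 and 170.9 TPM (log2 ratio −0.94) and that of eif1axb 112 and 226 TPM (−1.001), so that eif1axb lay at the threshold and eif1axa just inside it. Both were within 2-fold relative to the median gene. The GTPase-activating factor eif5 had 44.6 and 74.0 TPM (−0.72). The gene eif2d, whose product can deliver tRNA to the ribosome in place of eIF2, had 9.31 and 46.6 TPM (−2.21). The gene named eif1b in the Cuffcompare tables had 9.70 and 3.36 TPM (1.30), and the RefSeq gene table names the same transcript eif1. Placed in this group by its symbol alone, eif1ad had 24.8 and 15.7 TPM (0.62, or 1.11 relative to the median gene).

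eIF3 is the largest initiation factor, a complex that holds the small subunit together with its partners. Of 16 eIF3 genes, 6 were higher by 2-fold or more in the control column and 0 were at least 2-fold lower, beside 22.5% and 25.7% of all named genes. Relative to the median gene, 9 were higher and 0 lower, beside 30.5% and 18.7%. Subunits of the same complex nevertheless differed widely in ratio, from −0.76 to 6.87. The most abundant was eif3ea, with 201 TPM in the control and 307 TPM in the α-amanitin column (−0.61, or −0.12 relative to the median gene). Close to equal were also eif3ba, at 196 and 144 TPM (0.44), and eif3m, at 137 and 165 TPM (−0.27, above the median gene). The gene eif3k, at 64.2 and 109 TPM, had the lowest ratio of the group (−0.76).

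The largest ratio of all factors was that of eif3i, with 131 TPM in the control and 0.125 TPM in the α-amanitin column (6.87). The loosely bound subunit gene eif3jb had 29.8 and 0.00451 TPM (4.94), and eif3ha had 62.1 and 5.21 TPM (3.34). Both libraries nevertheless held an intron-matched long-read model of each of these 3 genes, so that their mRNA was found in the α-amanitin library. The near-0 values of eif3i and eif3jb in that column are those of the RefSeq row alone. The scaffold subunit gene eif3s10, the zebrafish eIF3A gene, had 51.1 and 30.1 TPM (0.74). For eif3c, another core subunit, the table lists 3.74 TPM in the control and 0 in the α-amanitin column, although a model was found in that library too.

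eIF2B recycles eIF2 by exchanging its GDP for GTP, and the eIF2 kinases stop this exchange under stress. Of these 7 genes 4 were at least 2-fold lower in the control column and 2 higher, beside 25.7% and 22.5% of all named genes. The counts relative to the median gene were also 4 and 2, beside 18.7% and 30.5%. Of these 6 genes, eif2b1, eif2b2 and eif2ak2 were under 4 TPM in both columns. The catalytic subunit gene eif2b5 was the most abundant in both columns, with 23.1 TPM in the control and 70.5 TPM in the α-amanitin column (log2 ratio −1.57). The gene of its partner in the catalytic subcomplex, eif2b3, had 3.06 and 25.3 TPM (−2.69). The gene eif2b4 had 19.0 and 29.7 TPM (−0.62). The haem-regulated kinase gene eif2ak1 had 8.54 and 37.1 TPM (−1.998), while eif2ak2, the kinase that senses double-stranded RNA, had 1.29 and 0.111 TPM. The gene eif6 was also lower in the control column, with 63.3 and 211 TPM (−1.72, or −1.24 relative to the median gene).

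Elongation was dominated by 1 gene, eef1a1l1. It had 7703 TPM in the control column, where it was the third most abundant named gene, and 1334 TPM in the α-amanitin column, where it ranked 13 (log2 ratio 2.53). It made up 59.3% of the summed TPM of all 73 factors in the control and 22.7% in the α-amanitin column. All factors together held 2.93% of the RefSeq TPM in the control and 1.42% in the α-amanitin column, and without eef1a1l1 these shares were 1.19% and 1.10%. Of all TPM, PacBio transcripts included, the RefSeq rows of all factors held 1.30% and 0.587%. The copies eef1a1a, eef1a1b and eef1a2 were under 1 TPM in both columns. The copy eef1a1l2 had 19.4 and 0.737 TPM (3.55). Reads shared among eEF1A copies could be split between them, so the low copies are uncertain.

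Of the 14 elongation genes, 5 were higher by 2-fold or more in the control column and 1 lower, beside 22.5% and 25.7% of all named genes. Relative to the median gene 6 were higher and 0 lower, beside 30.5% and 18.7%. The 1 lower gene was eef1g, the γ subunit of eEF1B, with 228 TPM in the control and 541 TPM in the α-amanitin column (log2 ratio −1.24, or −0.76 relative to the median gene). Other eEF1B subunits had the opposite sign. The δ subunit gene eef1da had 107 and 31.4 TPM (1.74) and the nucleotide-exchange subunit gene eef1b2 had 11.3 and 3.41 TPM (1.48). The second δ copy, eef1db, had 17.9 and 13.6 TPM in sum (0.38), while the listed values of its transcripts went opposite ways. Transcript NM_001030147 had 16.8 and 5.00 TPM (1.57), and NM_001161414 had 1.08 and 8.56 TPM (−2.20). Both transcripts had an intron-matched long-read model in each library.

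eEF2 is encoded by eef2b and by eef2a.1 and eef2a.2. The levels of eef2b were 326 TPM in the control and 376 TPM in the α-amanitin column (log2 ratio −0.20, above the median gene). The copy eef2a.1 had 103 and 3.45 TPM (4.55), and eef2a.2 had 8.58 and 4.05 TPM (0.93). Thus eef2a.1 made up 23.6% of the summed RefSeq TPM of these genes in the control and 0.899% in the α-amanitin column. Of these copies only eef2b had long-read models, so reads missing to PacBio transcripts may differ between the copies. eIF5A, named as an initiation factor but known to help peptide bond formation during elongation, was near equal. Its copies were at 110.0 and 91.1 TPM for eif5a (0.27) and 93.1 and 98.8 TPM for eif5a2 (−0.08, above the median gene).

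Among regulators of these factors, the 4 genes of eIF4E-binding proteins, which hold eIF4E away from eIF4G, included 1 that was higher by 2-fold or more in the control column and 0 that were lower, beside 22.5% and 25.7% of all named genes. Past 2-fold higher relative to the median gene were 2 of the 4, beside 30.5% of all named genes. The most abundant was eif4ebp3l, with 122 TPM in the control and 100.5 TPM in the α-amanitin column (log2 ratio 0.28). The related eif4ebp3 had 27.1 and 4.87 TPM (2.26). Levels of eif4ebp1 were 43.9 and 23.0 TPM (0.91), and those of eif4ebp2 30.3 and 31.7 TPM (−0.06, above the median gene). The gene eif4enif1 encodes 4E-T, a partner of eIF4E that represses and stores mRNAs. It was at 47.6 TPM in the α-amanitin column and is listed at 0 in the control column. The untreated library held 1 model of it, contained in the reference, so part of its mRNA structure was found there. The kinase gene eef2k, at 0.892 and 1.26 TPM, and the methyltransferase gene eef2kmt, at 0.000995 and 0.000115 TPM, were very low.

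Copies of the same factor were then set side by side. Of 16 pairs of related copies, 2 had 1 copy at least 2-fold higher and the other at least 2-fold lower in the control column. These were the eIF4A1 pair and the eIF4B pair, the helicase and its cofactor. Of all named genes 22.5% were higher and 25.7% lower past 2-fold, and the share of opposed pairs among other genes was not computed. The count of 2 is therefore a description of these pairs only. The gene eef2a.1 is part of more than 1 pair. Within the eIF4A1 pair, eif4a1a made up 8.28% of the summed TPM in the α-amanitin column and 96.1% in the control column. Within the eIF4B pair, eif4bb made up 7.71% and 89.8%, respectively. The α-amanitin library nevertheless held an intron-matched model of eif4a1a (2635 bases, reference 2668) and of eif4bb (2016 bases, reference 2014). All these shares are those of RefSeq rows alone, so reads assigned to PacBio transcripts of any copy are missing from them. Relative to the median gene the lower copy of both pairs was within 2-fold, at −0.88 for eif4a1b and −0.76 for eif4ba.

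In other pairs the balance of the copies also differed between the columns. The share of eif4ea in its pair with eif4eb was 32.7% in the α-amanitin and 84.8% in the control column, and that of eif3jb in its pair with eif3ja was 0.0493% and 66.8%. The copy eif2s1b made up 9.08% of the eIF2α pair in the α-amanitin column and 0.532% in the control column. Further pairs had a like balance in both columns. The share of eif4g2a in its pair was 49.9% and 50.9%, that of eif1axa 43.1% and 44.1%, and that of eif5a 48.0% and 54.2%. Reads from near-identical parts of 2 copies could be assigned to either, which makes these shares uncertain.

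**Figure D3:**
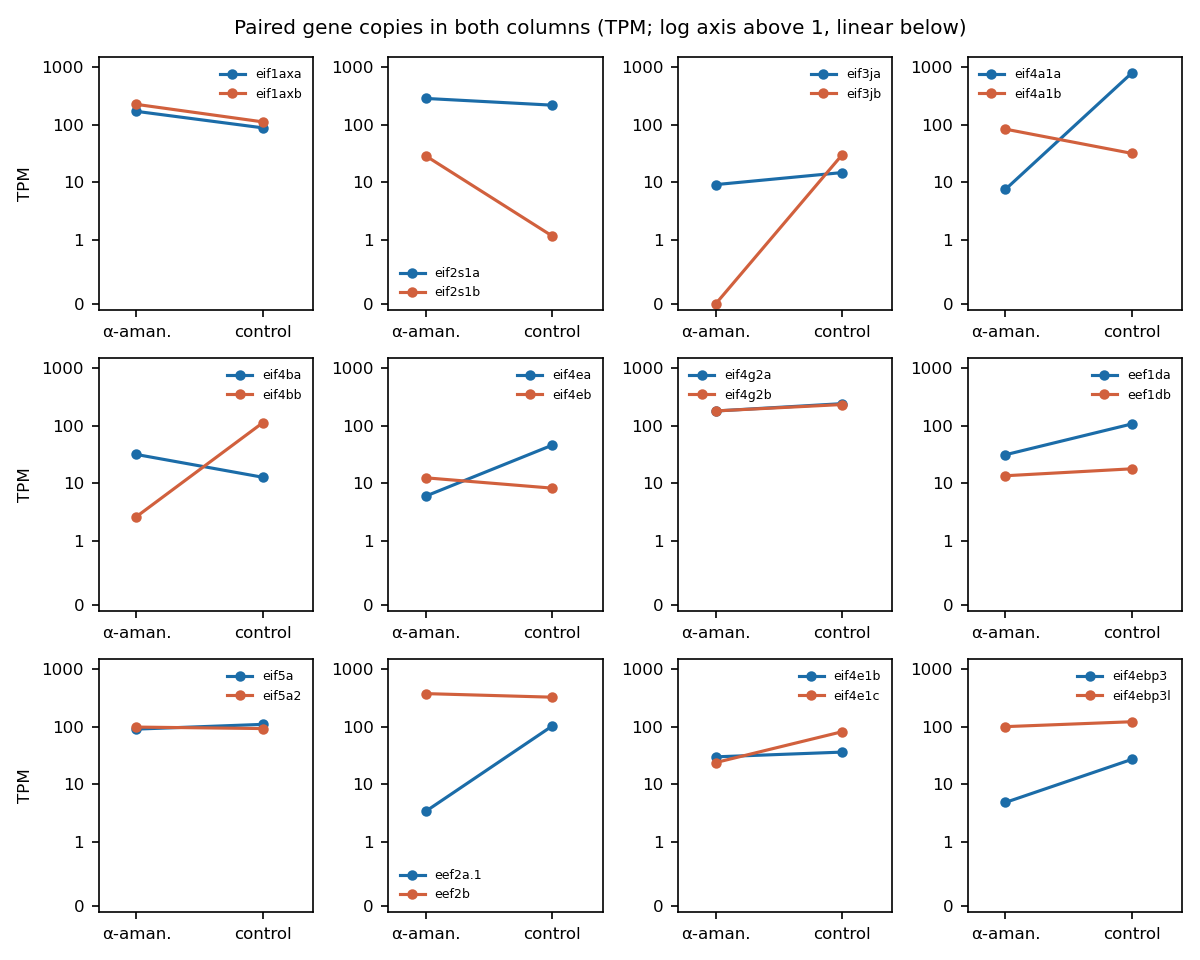
TPM of both copies in 12 pairs of related factors, in the α-amanitin and the control column, on an axis that is logarithmic above 1 TPM and linear below. Each point is 1 value without replicates. The lines of eif4a1a and eif4a1b, and of eif4ba and eif4bb, cross with the copies past 2-fold in opposite directions. Lines also cross for eif4ea and eif4eb, eif4e1b and eif4e1c, eif3ja and eif3jb, and eif5a and eif5a2. Those of eif4g2a and eif4g2b nearly lie on each other.

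Translation genes outside the naming rule were examined as a list of 39 genes, of which 30 were in the table. Of these, 5 were higher by 2-fold or more in the control column and 9 lower, near the 22.5% and 25.7% of all named genes, with a median log2 ratio of −0.05 (0.44 relative to the median gene). Scaled to the median gene, 6 were higher and 7 lower, beside 30.5% and 18.7%. In the poly(A)-binding group 1 of 6 genes was higher and 2 were lower. The embryonic poly(A)-binding protein gene pabpc1l had 3.48 and 35.4 TPM (−3.02), and the somatic pabpc1a had 23.8 and 4.26 TPM (2.24). Of 9 release and recycling genes, 1 was higher and 1 lower, with the release factor genes etf1b at 233 and 199 TPM (0.23) and gspt1l at 310.4 and 249 TPM (0.32). The ribosome recycling gene abce1 was the higher one, with 12.2 and 0.940 TPM (2.76). In the kinase and TOR branch 0 of 9 were higher and 3 lower. Of those 3, 2 encode kinases that phosphorylate eIF4E, mknk1 at 2.58 and 43.9 TPM (−3.65) and mknk2a at 20.6 and 171 TPM (−2.99), while mknk2b of the same family was within 2-fold, at 18.3 and 22.7 TPM (−0.29). The mitochondrial factors split, with 3 of 6 higher and 3 lower, and the 4 helicase symbols of the list matched no named row and were not analysed here.

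The long-read libraries gave a separate view, of which transcript structures were present. A model is a collapsed, non-redundant transcript structure, and the read numbers behind models are unknown, so models measure presence and not abundance. Of the 73 factors, 56 had at least 1 model in the untreated library (76.7%, 95% Wilson interval 65.8 to 84.9) and 58 did in embryos given α-amanitin (79.5%, interval 68.8 to 87.1). Among all named genes these shares were 43.6% and 44.3%. Models in both libraries were found for 52 factors (71.2%), against 36.9% of all named genes. The factors were also more abundant than most genes. Found in neither library were 11 factors (15.1%), against 49% of all named genes. The intervals cover counting error only. They are no test against the shares of all named genes, which are not matched for level.

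The 11 factors without a model included some at high levels. The copy eef2a.1 reached 103 TPM in the control column, eif2b5 reached 70.5 TPM and eif2d 46.6 TPM in the α-amanitin column, and eif4ea reached 46.1 TPM in the control column. The remaining 7 were eef1a1a, eef1a1b, eef1a1l2, eef1a2, eef2a.2, eef2k and eif2ak2. All 6 elongation genes that lacked a model were copies of eEF1A or eEF2; of these families, only eef1a1l1 and eef2b had models.

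In the untreated library alone, models were found for 4 factors (5.48%, against 6.71% of all named genes): eif3f, eif3s6ip, eif4e3 and eif4ebp3. In the α-amanitin library alone they were found for 6 (8.22%, against 7.47%): eif2b1, eif2b2, eif2b3, eif3hb, eif4a1b and eif4a2. Both shares were close to those of all genes. Of the 4, 2 were higher by 2-fold or more in the control column of the expression table and 2 within 2-fold. Of the 6, 3 were at least 2-fold lower in the control column, 2 higher and 1 within 2-fold. The column of the library with the model was the higher one for eif3s6ip, eif4ebp3, eif4a1b, eif2b1 and eif2b3. It was the lower one for eif4a2 and eif2b2 and, by less than 2-fold, for eif3f, eif4e3 and eif3hb. Levels of eif2b1 and eif2b2 were under 4 TPM in both columns. The like counts among all named genes were not computed, and models measure presence only, so these counts describe the listed factors alone.

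Each library held about the same number of models of these factors, 96 in the α-amanitin and 88 in the untreated library. Intron-matched models, those with every intron of a reference transcript (class =), were 44.8% of the α-amanitin set (35.2 to 54.7) and 51.1% of the untreated set (40.9 to 61.3), against 40.4% and 40.3% of all models that named a reference gene. The intervals cover counting error only and count models of 1 gene as separate, although such models share their source. They are therefore no test against the shares of all models. Models that shared a junction but had another structure (class j) made up 32.3% and 29.5%, against 32.6% and 30.4%. Contained models (class c) made up 16.7% and 18.2%, against 18.4% and 20.1%. At least 2 models were found for 28 of 58 factors in the α-amanitin library (48.3%) and 22 of 56 in the untreated library (39.3%), against 34.9% and 33.3% of all reference genes with a model.

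The factors with the most models had 4. In the α-amanitin library these were eif5, with models all of class j, and eif4bb. In the untreated library they were eif4ba and eif6, and eif5 had 3, of which 1 matched all introns. The class j models of eif5 had 797, 933, 1969 and 2017 bases in the α-amanitin and 934 and 2040 bases in the untreated library, with a reference of 1983 bases. The most abundant factor, eef1a1l1, had 1 full-length model in each library, of 1913 and 1856 bases against a reference of 1753 bases. In the α-amanitin library the locus of eif4a1a also held models that named its neighbour senp3b.

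**Figure D4:**
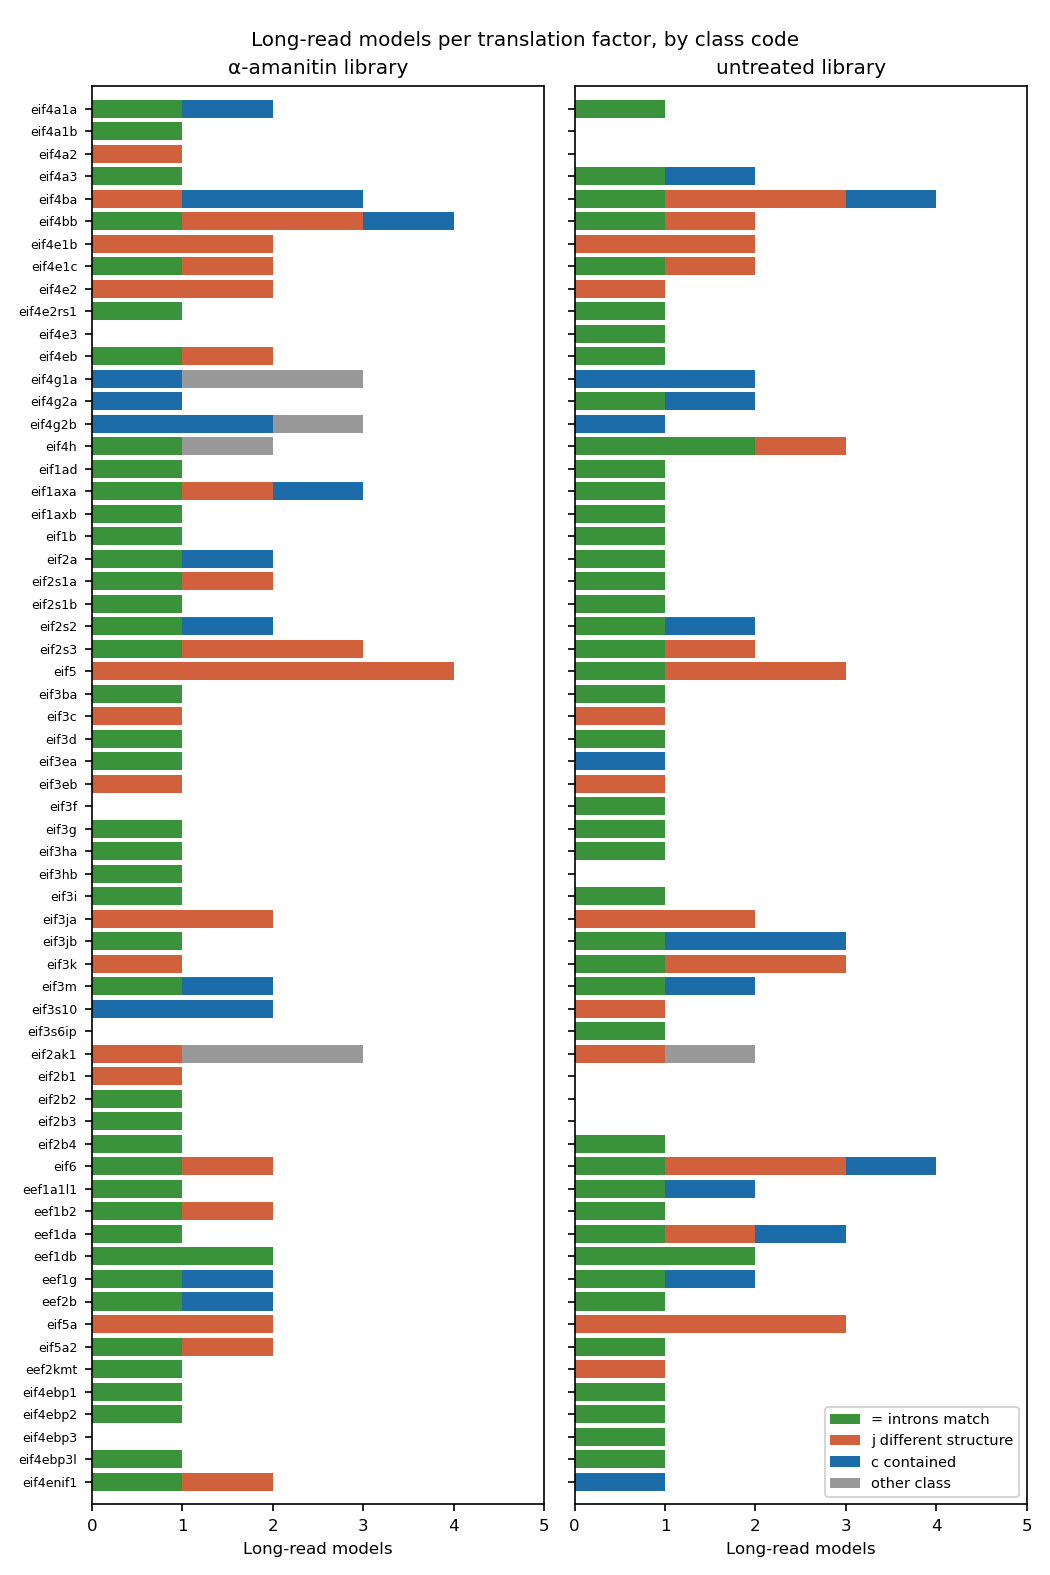
Number of long-read models of each factor with a model, in the α-amanitin (left) and the untreated library (right), stacked by class code. Bars start at 0 and count collapsed structures, not reads; eif5 and eif4bb reach 4 on the left and eif4ba and eif6 reach 4 on the right.

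Model length was compared with the reference. Of 43 intron-matched models in the α-amanitin library, 38 (88.4%) were within 10% of the reference length, and of 45 in the untreated library, 35 (77.8%), against 69.5% and 69.6% for all intron-matched models. Intron-matched models in both libraries were found for 36 transcripts of 35 factors. Their lengths differed between libraries by a median of 12.5 bases, and 15 of 36 differed by at most 10 bases. The largest difference was that of eif6, with 1531 bases in the untreated and 1131 bases in the α-amanitin library. In 20 cases the model of the α-amanitin library was longer, in 13 the model of the untreated library, and in 3 they were equal. Differences between the libraries were not computed for all genes.

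Some departures from the reference recurred in both libraries. The intron-matched models of eef1b2 were 793 bases in the α-amanitin and 792 bases in the untreated library, against a reference of 1010 bases. Those of eif4h transcript NM_205695 were 1347 and 1292 bases, against 2193 bases. The models of eif5a were all of class j and longer than the reference of 1250 bases, at 1630 and 2131 bases in the α-amanitin and 1755, 1997 and 2045 bases in the untreated library. For eif4e1b, with a reference of 924 bases, each library held a short class j model (941 and 905 bases) and a long one (1885 and 1802 bases). Whether the class j models of a gene share their introns between the libraries was not compared.

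Among the factors, long references were seldom matched in full. Of 7 factors with a reference of at least 3000 bases, 2 had an intron-matched model in either library, against 48 of 55 factors with shorter references. The like shares among all reference genes were not computed, so whether this is particular to the factors is unknown. The 2 long references with such a model were those of eif4g2a, with 3969 bases in the untreated library, and eif4enif1, with 4086 bases in the α-amanitin library. The longest reference, that of eif4g1a with 5393 bases, was named by models of 305 to 3145 bases. The scaffold gene eif4g2b and the eIF3 subunit gene eif3s10 likewise had models no longer than 2782 and 2573 bases, against references of 4163 and 4601 bases. The eIF3 subunit gene eif3c differed, with a class j model of 3257 bases in the untreated library against a reference of 3206 bases.

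**Figure D5:**
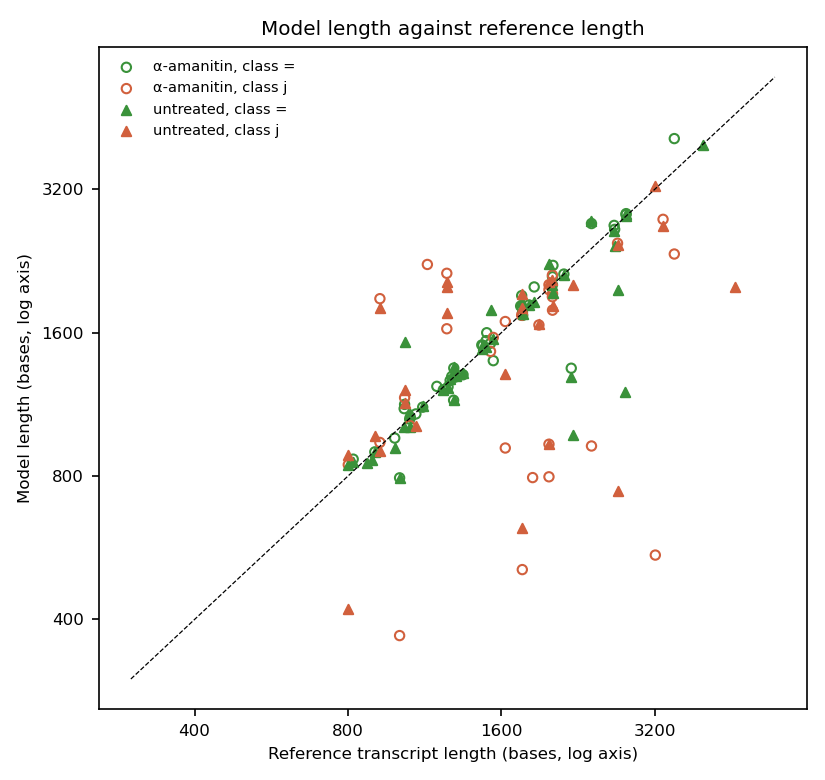
Length of each intron-matched (class =) and class j model of the factors against the length of its reference transcript, both in bases on log axes, with circles for the α-amanitin and triangles for the untreated library. The dashed line marks equal length, and most class = models lie on or near it. Class j models of eif5a and eif2b1 and the long ones of eif4e1b lie above it, and shorter class j models lie below.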

How the data were processed

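Per the series description, the authors assembled long reads with IsoSeq, mapped them to GRCz10 with GMAP and compared them with a reference by Cuffcompare. Each deposited table lists models with a class code and lengths in bases; its FPKM columns are 0 throughout and were not used. The deposited expression table holds log2(TPM + 1), a log2 unit read from the values, since 2 to that power, minus 1, has the same total in each column, as TPM does. Per the submitters' processing notes, kallisto and bcl2fastq 1.8.3 were used, with no role stated. TPM keeps no depth.

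Members and lists were chosen with earlier results of these data known. Of the 76 member transcripts, 64 were named by Cuffcompare and 12 by the RefSeq gene table alone (assembly GRCz12tu, names only). TPM was summed per symbol, with a pseudocount of 1 TPM and a threshold of 2-fold. The ratio code was run on simulated columns with planted folds and no noise, which checks its arithmetic only. Named factors are the most abundant of each role, those at 10 TPM and 4-fold, extremes of ratio, level and model number, opposed copies, factors with a model in 1 library and those listed at 0; other members were added to complete each complex, after their values were seen. No sequence was used here. 0 columns were left unused. Tools were Python 3.11.15, numpy 2.4.6, pandas 2.3.3, scipy 1.17.1 and matplotlib 3.10.9.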

Additional observations from a re-analysis of the deposited data

How the results depend on the processing

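With 1 value per group, no value has a replicate error, so these settings show only how the counts depend on the processing. The 2-fold counts were 22 higher and 13 lower. Scaling to the median gene gave 30 and 8, by construction a shift of every ratio, and a median of 0.76 in place of 0.28. The 4-fold threshold left 4 lower. Factors without an intron-matched model, an alternative chosen after seeing the data, numbered fewer by construction and gave 6 higher, 4 lower and a median of 0.37. The median was 0.37 at or above 1 TPM in either column, 0.30 for single transcripts and 0.30 with RefSeq names first (also chosen after seeing the data). A pseudocount of 0.1 TPM gave 24 higher and 13 lower. Requiring 2 models left 22 factors in the untreated library, 28 in the α-amanitin library and 16 in both. With the longest model per gene, the intron-matched share was 65.5% in the α-amanitin and 66.1% in the untreated library. The sign of the 22 higher and 13 lower factors could not change with the other pseudocount or with scaling of this size. Of these factors only eif4h has several RefSeq transcripts. The most abundant transcript alone therefore repeated the value of the others, and for eif4h it gave 1.57 in place of 2.37. Scaling brought eef1g, eif1axb, eif2a, eif4a1b and eif4ba within 2-fold. The planned search of mRNA starts for a pyrimidine motif was not run. No paired analysis was possible because there was 1 library per group. The depth behind TPM and models is unknown.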

Other observations

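Names differ between the sources for some genes. By the RefSeq gene table, 3 further transcripts would belong to the factors: eef1a1l3 (named si:dkey-37o8.1 by Cuffcompare) with 9.60 TPM in the control and 6.11 TPM in the α-amanitin column, eif1b (named zgc:56676) with 21.1 and 5.62 TPM, and eef1akmt1 (named n6amt2), listed at 0 in both columns. The eif1b of the RefSeq table is therefore another transcript than the eif1b of the Cuffcompare tables. Both had higher values in the control column. Other RefSeq symbols match the naming rule but have no row in the expression table, so the groups above are not whole families. These are eif4g1b, eif4g3a, eif4g3b, eif5b, eif3bb, eif2ak3, eif2ak4, eef1akmt2, eef1e1 and eef2l2.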
